A study of Mus musculus with 12 samples.

Results

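Macroglia, the astrocytes and the oligodendrocyte lineage, share the brain with microglia and are the main cells that a microglial preparation has to lose. The RNA of 33 genes that mark them was followed through 12 libraries of primary mouse microglia. The genes were chosen by name as markers of astrocytes (*Gfap*, *Aqp4*, *Slc1a3*, *Aldh1l1* and others), of oligodendrocytes and their progenitors (*Olig1*, *Sox10*, *Mbp* and others) and of immature glia (*Vim*, *Nes*, *Ptprz1* and others). All 33 were found among the 48623 genes of the expression table, each under 1 identifier.

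The cultures came from wild-type (WT) mice and from mice homozygous for the R47H knock-in allele of *Trem2* (KI), a receptor of microglia, both on the C57BL/6J background. Cortices and hippocampi of newborn pups were grown as mixed glia for several weeks, the astrocyte layer was lifted off by mild trypsin, and the microglia left behind were reseeded in medium conditioned by the mixed glia. From every culture, 1 library was untreated and 1 was made after 48 h in 20 ng/ml interleukin-4 (IL-4), a cytokine that drives alternative activation of macrophages. There were 3 WT cultures (T13, T33 and T43) and 3 KI cultures (T15, T22 and T32), so genotype varied between cultures and IL-4 within them. The methods of the study describe WT preparations in general as pooled from several pups of a litter and those of the KI line as grown from single pups, with littermates prepared together, kept apart and genotyped afterwards. Its text on the sequencing speaks of WT littermates, so whether the WT cultures here were pooled, and which of the 6 cultures shared a litter, is unclear. All groups carried the allele in every cell or in none, and no reporter or Cre was used.

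Astrocytes take up glutamate and potassium around synapses, couple to each other through connexins and move water at their endfeet, and in culture they carry a dense net of intermediate filaments made of GFAP and vimentin. Oligodendrocyte progenitors are known by PDGFRA, the NG2 proteoglycan encoded by *Cspg4*, and the transcription factors OLIG1, OLIG2 and SOX10, and they lose the first pair and gain myelin proteins such as MBP, MOG and MAG as they mature. Several of the 33 genes are not exclusive to macroglia. *Vim* is expressed by fibroblasts, mural cells and activated macrophages, *Cspg4* by pericytes, *Glul* and *Cnp* by macrophages, and *Olig1* and *Olig2* by immature astrocytes.

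The promoters of 27 of the 33 genes were matched in the RefSeq table of the GRCm38.p6 assembly, from 250 bases before to 50 after the annotated start. *Olig1*, *Sox9*, *Sox10*, *Atp1b2*, *Aqp4* and *Mbp* were not matched. The 4 promoters below belong to an astrocyte filament gene, a glutamate transporter gene, the filament gene that passed the test for genotype and an oligodendrocyte transcription factor gene. Of these 4 genes only *Vim* passed that test, and *Olig1*, the other member that did, was not matched. Capitals mark matches, on either strand, to a STAT motif (TTCNNNGAA), to the wider STAT6 form (TTCNNNNGAA), to a TATA box (TATAAA) or to a SOX motif (ACAATG), and in these 4 windows no match overlaps another. *Gfap* lies on the minus strand with its window at chr11:102897151-102897450, *Slc1a3* on the minus strand at chr15:8710758-8711057, *Vim* on the plus strand at chr2:13574061-13574360, and *Olig2* on the plus strand at chr16:91225300-91225599.
Gfap promoter: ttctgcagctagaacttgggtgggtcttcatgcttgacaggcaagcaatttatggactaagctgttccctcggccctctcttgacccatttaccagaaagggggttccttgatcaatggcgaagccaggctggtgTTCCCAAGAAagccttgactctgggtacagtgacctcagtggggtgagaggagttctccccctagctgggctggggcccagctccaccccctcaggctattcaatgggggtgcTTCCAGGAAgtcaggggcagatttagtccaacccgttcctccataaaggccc
Slc1a3 promoter: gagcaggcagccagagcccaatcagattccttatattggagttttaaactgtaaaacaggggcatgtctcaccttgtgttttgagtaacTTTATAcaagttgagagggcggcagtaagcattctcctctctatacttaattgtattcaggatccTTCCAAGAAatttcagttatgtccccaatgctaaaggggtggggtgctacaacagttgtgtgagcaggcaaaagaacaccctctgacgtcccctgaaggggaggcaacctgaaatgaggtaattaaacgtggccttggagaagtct
Vim promoter: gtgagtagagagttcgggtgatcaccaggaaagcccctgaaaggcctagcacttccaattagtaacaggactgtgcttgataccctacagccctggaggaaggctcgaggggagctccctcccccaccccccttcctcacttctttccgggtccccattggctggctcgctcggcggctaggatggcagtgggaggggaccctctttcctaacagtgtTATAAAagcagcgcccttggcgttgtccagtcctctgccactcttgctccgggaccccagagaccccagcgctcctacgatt
Olig2 promoter: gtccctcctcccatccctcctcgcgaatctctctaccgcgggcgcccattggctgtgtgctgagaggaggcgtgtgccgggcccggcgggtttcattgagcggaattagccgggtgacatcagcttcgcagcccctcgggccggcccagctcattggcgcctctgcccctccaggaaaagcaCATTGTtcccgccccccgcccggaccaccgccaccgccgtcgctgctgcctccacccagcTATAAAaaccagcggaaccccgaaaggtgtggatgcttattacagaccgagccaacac

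The STAT motif was found in 8.3% of the 32851 promoters of the table and in at least 1 promoter of 5 of the 27 matched members (*Gfap*, *Slc1a3*, *Aldoc*, *Ntsr2* and *Mag*). A member with several annotated promoters was counted once, so member counts and shares of promoters differ in unit. The STAT6 form was in 6.95% of all promoters and, among the members, only in that of *Gfap*. The TATA box was in 13.6% of all promoters and in those of 4 members, *Vim* among them. The SOX motif marked in *Olig2* was in 12.6% of all promoters. A full NFI site (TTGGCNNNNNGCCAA) was in 0.0365% of all promoters and in none of the matched members. These matches describe letters in a window and not binding.

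Values are TPM, a transcript abundance scaled to gene length, so that levels can be set beside each other between genes. The total of a library is 1000000 TPM and no read counts are kept. The depth behind a value is thus unknown here, and precision is given by the spread between the libraries of a group. Tests were run with limma on log2(TPM + 1), over the 11204 genes whose mean exceeded 1.5 on that scale. The main fit had no term for culture, so the paired libraries of a culture counted as independent. The genotype test was a moderated F-test of genotype together with its interaction with IL-4, the IL-4 test was built in the same way, and p-values were adjusted over all 11204 genes by the Benjamini-Hochberg method, with a threshold of 0.05. Of the 33 genes, 27 passed the filter on low values and were tested. The 6 below it were *Gjb6*, *S100b*, *Sox10*, *Pdgfra*, *Mobp* and *Mog*. *Trem2* itself was between 1190 and 1886 TPM in the 6 WT libraries and between 324.6 and 769.9 TPM in the 6 KI libraries, with no overlap.

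Astrocyte RNA was present in every library and differed most between cultures. The TPM of 10 defining astrocyte markers (*Gfap*, *Aqp4*, *Gja1*, *Gjb6*, *Aldh1l1*, *Slc1a2*, *Slc1a3*, *Fgfr3*, *Ntsr2* and *Mlc1*) summed, without IL-4, to 652 in T13, 199.8 in T33 and 152 in T43 among WT cultures, and to 4449 in T15, 231 in T22 and 594 in T32 among KI cultures. After IL-4 the sums were 601, 185.7 and 156 in WT and 3546, 654 and 595 in KI. KI culture T15 stood apart under both treatments, whereas the other KI cultures fell within or near the WT range. *Gfap* made up 34.8% to 67.7% of the sum. Without it, T22 and T32 were at 151 and 322 untreated, where WT reached 263. After IL-4 they were at 383 and 244, where WT reached 233, so that all KI cultures then lay above all WT cultures. T15 held 0.445% of its untreated TPM in these 10 genes, against 0.0152% to 0.0652% in the other 5 untreated libraries.

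**Figure D1:**
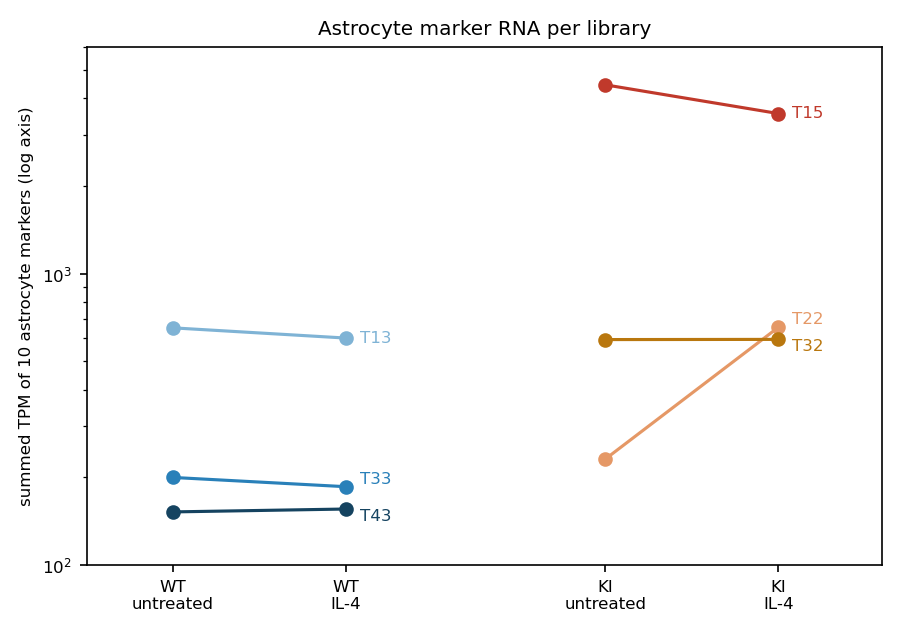
Summed TPM of 10 astrocyte markers (log axis) in each library, with a line joining the untreated and the IL-4-treated library of a culture. T15 lies at 4449 and 3546, above every other library, and T22 has the largest step between treatments, from 231 to 654.

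Within each treatment the sum of 20 microglial markers was lowest in T15, at 13562 TPM untreated and 22021 TPM after IL-4. T22 and T32 were also low, at 26432 and 20817 TPM untreated, where WT lay between 31780 and 34101 TPM. After IL-4 they were at 29875 and 28062 TPM, where WT lay between 35451 and 41175 TPM. The genotypes thus did not overlap in this sum under either treatment, and *Trem2* is among the 20 markers. Per 1000 TPM of microglial markers, T15 held 328 TPM of astrocyte markers untreated and 161 TPM after IL-4, and the other libraries between 4.21 and 28.5 TPM. In bulk RNA, more cells of a type and more RNA per cell cannot be told apart, so these sums do not count astrocytes. Because T15 is 1 of 3 KI cultures, the genotype differences of the members are given with and without it.

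**Figure D2:**
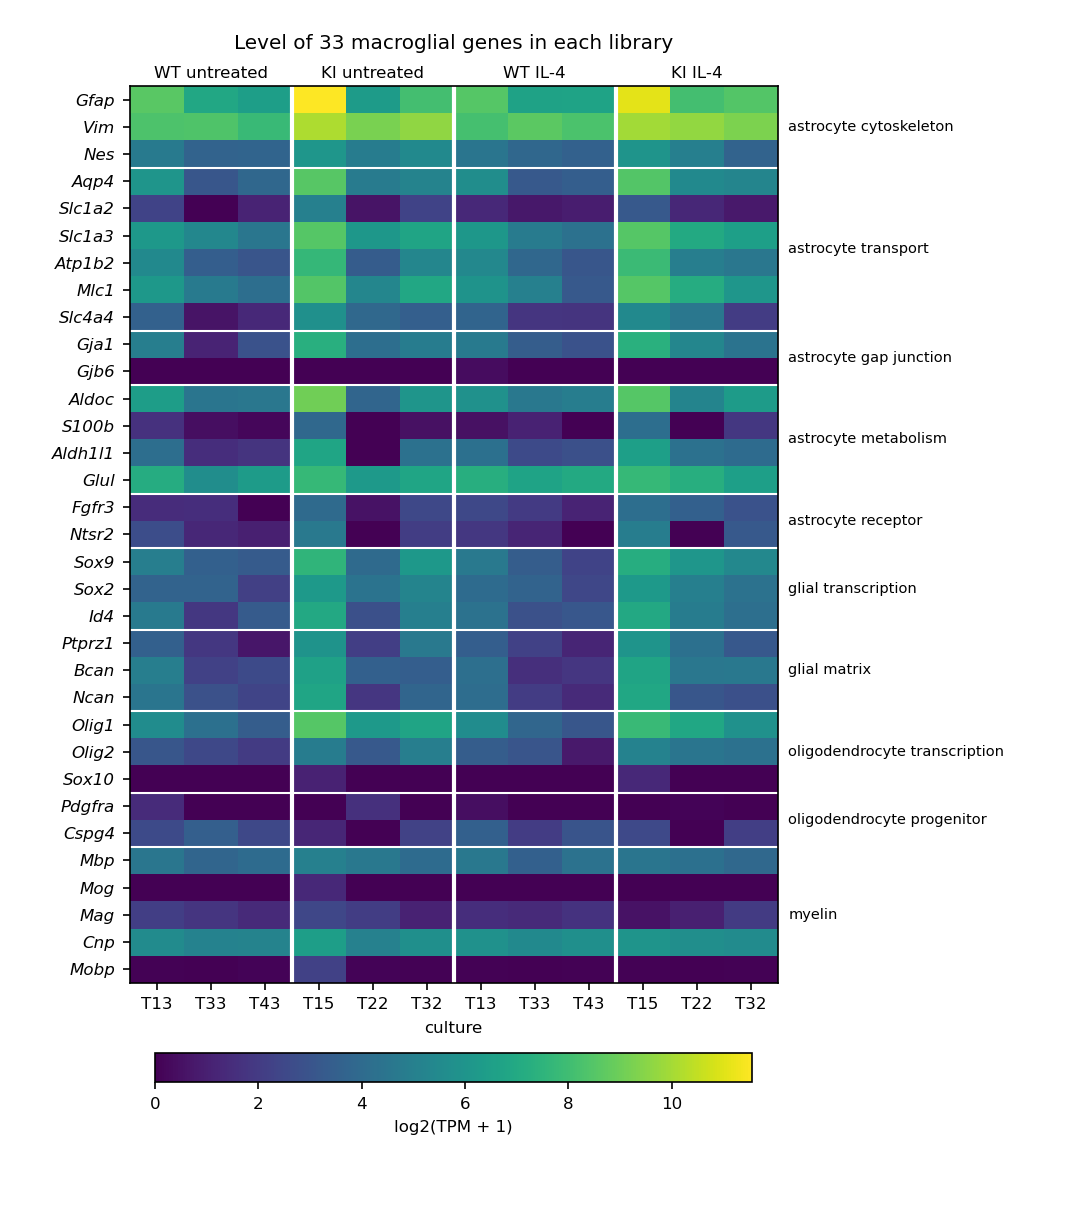
Level of each of the 33 genes as log2(TPM + 1) (colour) in each of the 12 libraries (columns, grouped by genotype and treatment), with genes grouped by role. T15 is brightest for most astrocyte and matrix genes under both treatments, while *Gjb6*, *Sox10*, *Mog*, *Pdgfra* and *Mobp* are near 0 in most libraries.

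Of the 33 genes, 25 had their highest value of a treatment in T15 both without and with IL-4. The exceptions were *Gjb6*, *Olig2*, *Pdgfra*, *Cspg4*, *Mbp*, *Mag*, *Mobp* and *Mog*, all but the first genes of the oligodendrocyte lineage. The 27 tested genes were then compared between genotypes. Only *Vim* and *Olig1* passed the genotype test, both higher in KI, where 1.29% of all tested genes did so. The difference was above 0 in 25 of the 27 tested genes, with a median of 1.56 on the log2(TPM + 1) scale against 0.129 over all genes. With quantile normalization and with median-ratio scaling the same number were above 0, and the medians were 1.41 against -0.0779 and 1.45 against 0.0175. The exceptions were *Cspg4* at -1.50 and *Mag* at -0.13, neither past the threshold.

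Without T15, 25 of the members were tested and *Vim* alone passed, where 0.273% of the genes then tested were higher in KI. Over those 25 genes the median difference was 0.94, against 1.63 with T15, and 24 of the 25 differences became smaller in size while 23 remained above 0. Of the 25, 16 became smaller by over 1.5 times.

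Other cultures moved the differences as well, without KI culture T22 mostly the other way, with 24 of 27 larger in size and a median of 2.32. Without T22, 7 grew by over 1.5 times, *Gfap* from 1.63 to 2.49, *Slc1a2* from 1.13 to 1.76, *Aldoc* from 1.33 to 2.33, *Aldh1l1* from 1.47 to 2.56, *Ntsr2* from 1.14 to 2.39, *Ncan* from 1.32 to 2.19 and *Cnp* from 0.27 to 0.45, and that of *Cspg4* went from -1.50 to -0.81. None of these 8 passed the threshold. The median was 2.21 without T13, 1.91 without T32, 1.36 without T33 and 1.27 without T43. Moves of over 1.5 times were found there for *Glul* (0.62, 0.55 and 0.10 without T13, T32 and T33), *Mbp* (0.49, 0.48 and 0.02 without the same), *Ncan* (2.03 without T13 and 0.83 without T43), *Mag* (-0.04 without T13), *Cnp* (0.18 without T33) and *Ntsr2* (0.71 without T43).

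With the culture as a random replicate block, *Vim* alone passed, with 0.5% of all genes called higher in KI. That block gave paired libraries the same correlation of 0.198 for every gene. With a fixed block the SE of the IL-4 difference fell from 0.77 to 0.21 for *Gfap* and from 0.52 to 0.20 for *Olig1*. For *Vim* it fell from 0.17 to 0.11, and among tested members it rose only for *Mag*. With the random block the genotype SE was 0.77 for *Gfap* and 0.53 for *Olig1*, against 0.77 and 0.52 without it. The random block thus accounts for the shared culture only in part. A test of the genotype coefficient alone called 7 members higher (*Sox9*, *Slc1a3*, *Vim*, *Mlc1*, *Olig2*, *Olig1* and *Sox2*), with a background of 3.95%. With the random replicate block added, an alternative chosen after seeing the data, it called 6 of these, with a background of 2.24%, and *Mlc1* no longer passed (adjusted p = 0.0715). Without T15 it called *Vim* alone, with a background of 1.14%.

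**Figure D3:**
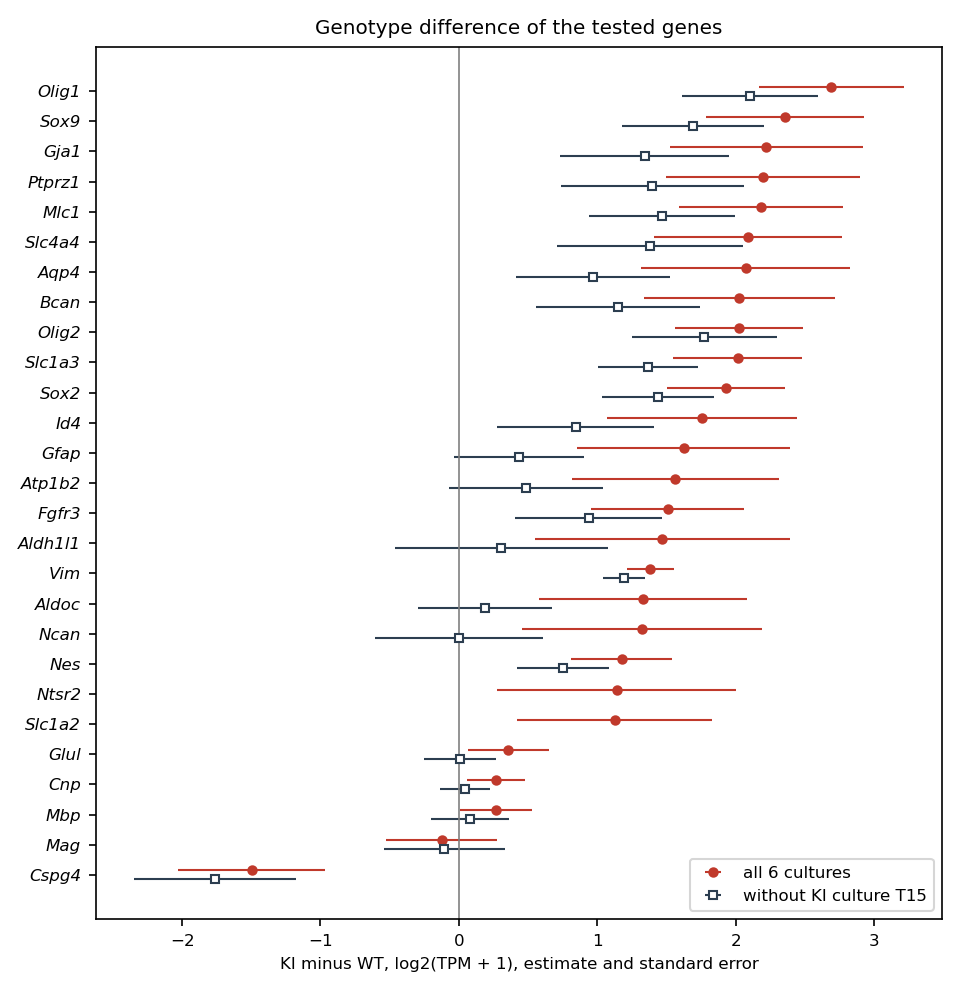
KI minus WT difference in log2(TPM + 1) with its standard error from limma for the 27 tested genes, with all 6 cultures (filled circles) and without T15 (open squares, 25 genes). *Vim* moves from 1.38 to 1.19, while *Gfap* moves from 1.63 to 0.44 and *Ncan* from 1.32 to near 0.

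*Gfap* and *Vim*, which encode intermediate filament proteins, had the highest mean levels of the 33 genes. *Vim* (chr2:13573927-13582826), the vimentin gene, measured 322 TPM in T13, 333 TPM in T33 and 227 TPM in T43 without IL-4, all WT, and 1125 TPM in T15, 603 TPM in T22 and 800 TPM in T32, all KI. The order of cultures is kept in the values that follow. After IL-4 it was at 285, 395 and 307 TPM in WT and at 984, 822 and 617 TPM in KI. Every KI library lay above every WT library of the same treatment, which 4 of the tested members and 3.7% of all tested genes did under both treatments. *Vim* was higher in KI by 1.38 on the log2(TPM + 1) scale (SE 0.17, limma, adjusted p = 0.00597), and by 1.19 without T15 (SE 0.15, adjusted p = 0.0138). It missed the threshold without WT culture T33 (adjusted p = 0.0555) or without WT culture T43 (adjusted p = 0.0603), and when genes of low level were not filtered out (adjusted p = 0.0926).

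The contractile genes *Acta2*, *Tagln*, *Myl9* and *Cnn1* of the mural cell list were also higher in KI. They were the 4 tested genes of 12, the call of *Cnn1* (1.93, SE 0.34, adjusted p = 0.0305) was lost without T15 (adjusted p = 0.0661) and with the random replicate block (adjusted p = 0.0644), and *Kcnj8* and *Vtn* were listed at 0 in every library. The sum of the 12 was between 178 and 480 TPM in WT libraries and between 840 and 1601 TPM in KI libraries, and *Acta2*, *Tagln* and *Myl9* made up 90.0% to 95.9% of it. Without these 3, left out after the values were seen, the sum of the other 9 was between 10.8 and 47.8 TPM in WT libraries and between 41.4 and 121.7 TPM in KI libraries, with T43 after IL-4 above T32 after IL-4. Of the 16 fibroblast and meningeal markers, 6 were tested, with a median genotype difference of 0.575 that was 0.0678 without T15. Their sum did not overlap between genotypes, at 239 to 881 TPM in WT and 1328 to 2693 TPM in KI, but *Igfbp2* made up 43.2% to 97.2% of it. Without *Igfbp2*, left out after the values were seen, the sum of the other 15 in untreated cultures lay between 19.8 and 84.3 TPM for WT and between 76.1 and 180.5 TPM for KI. After IL-4 it lay between 56.7 and 308.9 TPM for WT and between 67.9 and 182.3 TPM for KI, so the genotypes overlapped under either treatment. The part of these genes' source cells in the *Vim* difference was not tested.

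*Gfap* (chr11:102887336-102900912), the astrocyte filament gene whose promoter is printed above, was at 389, 119 and 88.1 TPM in untreated WT and at 3013, 80.5 and 272 TPM in untreated KI. After IL-4 it was at 368, 98.6 and 104 TPM in WT and at 2157, 271 and 351 TPM in KI. T15 alone exceeded the WT range, and T22 untreated was the lowest library of all. The difference between genotypes was 1.63 (SE 0.77, limma, adjusted p = 0.481), and 0.44 without T15 (SE 0.47, adjusted p = 0.734). *Nes*, a filament gene of neural progenitors, ranged from 10.9 to 66.2 TPM and differed by 1.18 (SE 0.37, adjusted p = 0.203, limma), and by 0.75 without T15 (SE 0.33, adjusted p = 0.449).

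The genes of glutamate, water and ion transport were all highest in T15, while the order of the other cultures differed between genes. *Slc1a3*, the glutamate transporter that cultured astrocytes mainly use, was at 70.4, 40.3 and 22.1 TPM in untreated WT and at 369, 67.4 and 108 TPM in untreated KI. After IL-4 it was at 69.4, 27.2 and 19.0 TPM in WT and at 366, 127 and 90.3 TPM in KI. The KI and WT groups overlapped untreated, through T13 and T22, and not after IL-4. The difference of 2.01 (SE 0.46, limma, adjusted p = 0.0835) did not pass the threshold, and was 1.37 without T15 (SE 0.36, adjusted p = 0.186), but it passed without T13 (2.48, adjusted p = 0.0458). *Slc1a2*, the glutamate transporter of mature astrocytes, was at 32.2 TPM in T15 untreated, 8.35 TPM in T15 after IL-4 and at most 4.02 TPM in every other library.

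*Aqp4*, the water channel of astrocyte endfeet, was at 374 and 348 TPM in T15 without and with IL-4 and between 7.53 and 64.2 TPM elsewhere. *Mlc1*, a membrane protein of astrocyte junctions, ranged from 8.44 to 367 TPM, and its KI and WT groups did not overlap after IL-4. *Atp1b2*, a sodium pump subunit, ranged from 7.23 to 233 TPM and followed the astrocyte sum most closely of the 33 genes (Pearson r = 0.983 over the 12 libraries on the log2 scale, and 0.948 over the 10 libraries without T15). *Slc4a4*, a bicarbonate cotransporter, ranged from 0.502 to 54.6 TPM. None of the 6 transport genes passed the genotype test, and their differences ran from 1.13 to 2.18. Without T15, *Aqp4* went from 2.07 to 0.97, *Atp1b2* from 1.56 to 0.49, *Mlc1* from 2.18 to 1.47 and *Slc4a4* from 2.09 to 1.38, and *Slc1a2* fell below the filter.

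The connexin genes split. *Gja1*, the main astrocyte connexin, was at 157 and 163 TPM in T15 and between 1.23 and 38.5 TPM in the other 10 libraries, with a genotype difference of 2.22 (SE 0.70, limma, adjusted p = 0.217) that was 1.34 without T15 (SE 0.61, adjusted p = 0.534). *Gjb6*, the connexin that astrocytes acquire later in development, was listed at 0 in 11 of the 12 libraries, T15 included, and at 0.292 TPM in T13 after IL-4. RNA of T15 was therefore high for one connexin gene while the other was listed at 0.

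Of the metabolic genes, *Aldoc*, the aldolase of astrocytes, was at 530 and 359 TPM in T15 and between 12.8 and 84.8 TPM elsewhere. *Aldh1l1*, a folate enzyme used as an astrocyte marker, was at 109 and 91.2 TPM in T15, and in T22 it was listed at 0 untreated and at 18.7 TPM after IL-4. *S100b*, a calcium-binding protein, was at 13.8 and 16.9 TPM in T15 and at most 2.72 TPM elsewhere. *Glul*, glutamine synthetase, varied least of the 4, from 49.1 to 216 TPM, with a genotype difference of 0.36 (SE 0.29, limma, adjusted p = 0.750) that was 0.01 without T15. The receptors *Fgfr3* and *Ntsr2*, for fibroblast growth factors and neurotensin, reached 17.1 and 29.3 TPM, both in T15 after IL-4, with genotype differences of 1.51 (SE 0.55) and 1.14 (SE 0.86) that did not pass the threshold. Without T15 the difference of *Fgfr3* was 0.94 (SE 0.53) and *Ntsr2* fell below the filter. The differences of *Aldoc* and *Aldh1l1* were 1.33 (SE 0.75) and 1.47 (SE 0.92), and 0.19 and 0.31 without T15, none of them past the threshold.

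Among the transcription factors of glial progenitors and astrocytes, *Sox9* was at 29.9, 10.6 and 9.12 TPM in untreated WT and at 189, 14.9 and 69.7 TPM in untreated KI. After IL-4 it was at 24.2, 9.77 and 3.95 TPM in WT and at 148, 65.9 and 40.5 TPM in KI. The groups overlapped untreated and not after IL-4, and the difference of 2.36 (SE 0.57, limma, adjusted p = 0.0952) was 1.69 without T15 (adjusted p = 0.255) and passed without T22 (2.88, adjusted p = 0.0471). *Sox2*, a factor of neural stem cells that astrocytes keep, was at 12.0, 11.8 and 3.56 TPM in untreated WT against 72.0, 19.9 and 35.8 TPM in untreated KI, and at 15.3, 11.9 and 4.55 TPM against 73.2, 30.5 and 19.5 TPM after IL-4. Its groups did not overlap under either treatment, yet the difference of 1.93 (SE 0.42, limma, adjusted p = 0.0693) missed the threshold, as did that of 1.44 without T15 (SE 0.40, adjusted p = 0.227). *Id4*, an inhibitor of differentiation factors, was at 125 TPM in T15 under both treatments and between 2.67 and 31.0 TPM elsewhere, and its difference of 1.76 (SE 0.69) was 0.84 without T15, neither past the threshold.

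The matrix and surface genes of immature glia were also highest in T15. *Ptprz1*, a receptor phosphatase, was at 61.0 and 62.8 TPM there and between 0.613 and 24.5 TPM elsewhere. *Bcan* and *Ncan*, which encode the proteoglycans brevican and neurocan, were at 98.1 and 106 TPM and at 110 and 119 TPM in T15, and at most 29.6 and 21.2 TPM elsewhere, both in T13 untreated. *Ptprz1* differed by 2.20 (SE 0.70) and *Bcan* by 2.03 (SE 0.69), and by 1.40 and 1.15 without T15, none past the threshold. The genotype difference of *Ncan* was 1.32 (SE 0.87, limma, adjusted p = 0.665) with T15 and 0.00 (SE 0.60, adjusted p = 0.925) without it.

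The oligodendrocyte transcription factors differed widely in level. *Olig1* (chr16:91269772-91271933) was at 48.3, 18.2 and 9.78 TPM in untreated WT and at 361, 72.8 and 106 TPM in untreated KI. After IL-4 it was at 48.3, 13.2 and 7.49 TPM in WT and at 227, 116 and 56.3 TPM in KI. Every KI library lay above every WT library of its treatment, although T13 after IL-4 and T32 after IL-4 were close. *Olig1* was higher in KI by 2.69 (SE 0.52, limma, adjusted p = 0.0438), the largest difference among the 27 tested members. With 1 culture left out in turn it passed only without T13 (adjusted p = 0.0113), and not without T15 (2.11, SE 0.49, adjusted p = 0.147), T22 (adjusted p = 0.0617), T32 (adjusted p = 0.0717), T33 (adjusted p = 0.240) or T43 (adjusted p = 0.272). It also no longer passed with the random replicate block (adjusted p = 0.0634), with quantile normalization (adjusted p = 0.0566), with a pseudocount of 0.1 (adjusted p = 0.0631) or with no filter (adjusted p = 0.343).

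*Olig2* was at 7.61, 4.70 and 3.02 TPM in untreated WT against 27.7, 8.26 and 30.2 TPM in untreated KI, and at 9.46, 7.19 and 0.734 TPM against 34.4, 21.4 and 19.1 TPM after IL-4. Its groups did not overlap, and T32 rather than T15 was highest untreated. The difference was 2.02 (SE 0.46, limma, adjusted p = 0.0792), and 1.78 without T15 (SE 0.53, adjusted p = 0.265). *Sox10*, the factor that marks the lineage from progenitor to myelinating cell, was listed at 0 in 10 of 12 libraries and at 1.15 and 1.53 TPM in T15. *Pdgfra*, the growth factor receptor of the progenitors, was at most 2.04 TPM, in T22 untreated, and in T15 it was at 0.000172 TPM untreated and listed at 0 after IL-4.

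*Cspg4* had lower rather than higher values in KI. Untreated, it measured 5.06, 10.4 and 4.67 TPM in WT and 1.39, 0 and 3.81 TPM in KI, so that every KI culture lay below every WT culture. After IL-4 it was at 10.8, 3.10 and 7.01 TPM in WT and at 4.81, 0 and 3.46 TPM in KI, with T33 within the KI range. The difference was -1.50 (SE 0.53, limma, adjusted p = 0.287) and -1.76 without T15 (SE 0.58, adjusted p = 0.342), so it did not pass in either fit. With a pseudocount of 0.1 it was -2.66, also not past the threshold.

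The myelin genes had small genotype differences. *Mbp*, myelin basic protein, stayed between 10.7 and 32 TPM in all 12 libraries, with a genotype difference of 0.27 (SE 0.26, limma, adjusted p = 0.778) that was 0.08 without T15. *Cnp*, a phosphodiesterase of myelin, stayed between 32.9 and 86.9 TPM and *Mag*, a myelin glycoprotein, between 0.457 and 4.47 TPM, with differences of 0.27 (SE 0.21, adjusted p = 0.654, limma) and -0.13 (SE 0.40, adjusted p = 0.939, limma), and of 0.04 and -0.11 without T15. *Cnp* was highest in T15 under both treatments and correlated with the astrocyte sum at 0.812 over the 12 libraries and at 0.588 without T15. *Mog*, found on the outer face of myelin, was at 1.54 TPM in T15 untreated and listed at 0 in the other 11 libraries. *Mobp*, a protein of compact myelin, was at 3.72 TPM in T15 untreated and at most 0.0787 TPM elsewhere. Of the 4 defining markers of mature oligodendrocytes, *Mog* and *Mobp* were thus at or near 0 outside 1 library, while *Mbp* and *Mag* were above 0 in all 12.

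Over the 12 libraries, 24 of the 33 genes had a Pearson correlation above 0.8 with the astrocyte sum on the log2 scale and 13 were above 0.9. Without T15 only *Atp1b2* (0.948), *Ptprz1* (0.924) and *Sox9* (0.910) stayed above 0.9. No share over all tested genes is set beside these counts. Each of the 10 genes of the sum was correlated with the sum of the remaining ones. The libraries of a culture are not independent and T15 weighs on every coefficient, so these are descriptions. The coefficient was 0.942 for *Sox9* and 0.902 for *Olig1*, neither in the sum, and 0.910 and 0.838 without T15. It was 0.755 for *Vim*, and 0.512 without T15. It was 0.782 for *Glul*, 0.625 for *Mbp*, -0.155 for *Cspg4* and -0.112 for *Pdgfra*, and 0.556, 0.348, -0.137 and 0.180 without T15.

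**Figure D4:**
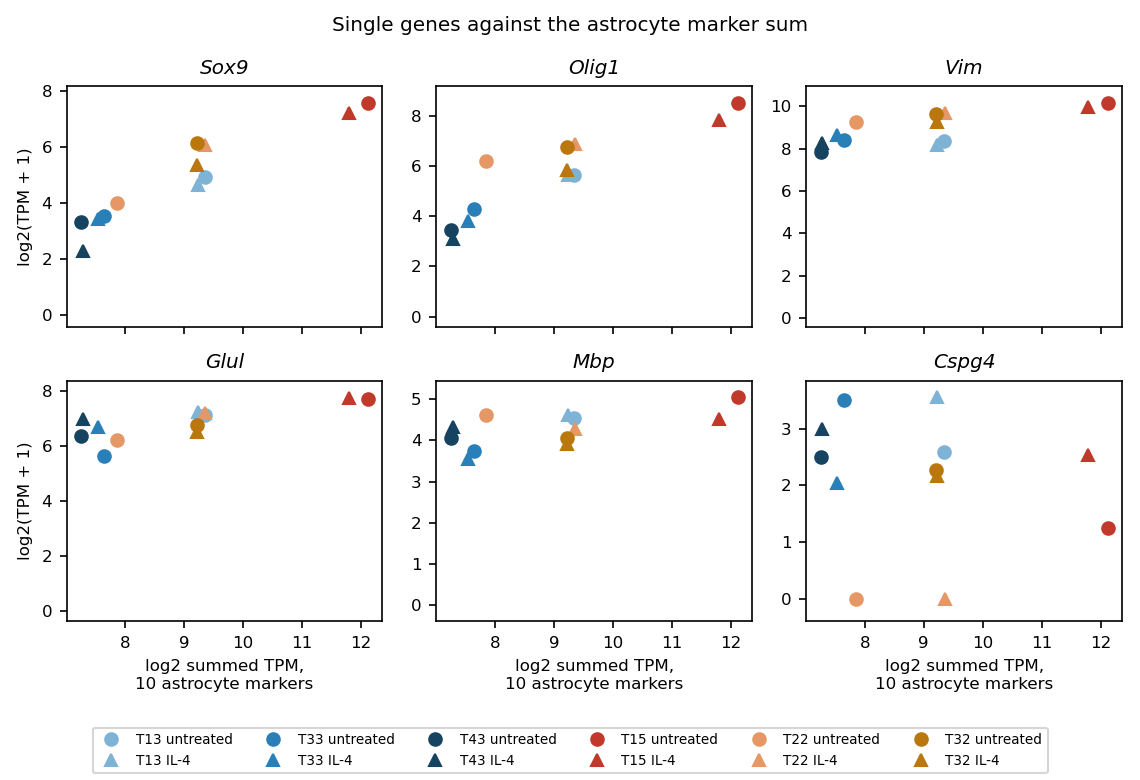
Level of 6 genes as log2(TPM + 1) against the log2 of the summed TPM of 10 astrocyte markers, with 1 point per library (circles untreated, triangles IL-4, colours by culture). *Sox9*, *Olig1* and, less closely, *Vim* rise with the sum, and at a like sum each of them is higher in KI than in WT. *Glul* rises over a narrower range, and *Mbp* and *Cspg4* follow the sum less closely or not at all.

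Outside the 33 genes, the 10 tested genes whose levels were most like the astrocyte sum were *Prdx6*, *2810459M11Rik*, *A2m*, *Atp1b1*, *Chst2*, *Ckb*, *Rtn1*, *Gpm6b*, *Hspb6* and *Scd2*, with Pearson r from 0.974 to 0.989 over the 12 libraries and from 0.929 to 0.984 without T15. *Prdx6*, a peroxiredoxin abundant in astrocytes, was at 284.1 to 834 TPM in the untreated libraries other than T15 and at 3695 TPM in T15. None of the 10 passed the genotype test, and their adjusted p-values from limma lay between 0.149 and 0.446.

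IL-4 gave no call among the 27 tested members. None passed its test, where 0.893% of all tested genes did, none had an unadjusted p under 0.05, and the smallest adjusted p among members was 0.925 (*Fgfr3*, limma). None passed with the culture as a fixed replicate block or with the IL-4 coefficient alone. The median IL-4 difference over the 27 tested members was 0.07 on the log2(TPM + 1) scale, against 0.04 over all genes, and single genes ran from -0.53 (*Slc1a2*, SE 0.70) to 1.03 (*Fgfr3*, SE 0.55). In other settings that of *Slc1a2* ran from -0.92 (without T22) to -0.30 (pseudocount of 0.1). That of *Fgfr3* ran from 0.58 (without T22) to 1.76 (pseudocount of 0.1).

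Within cultures the astrocyte sum after IL-4 was 0.922, 0.929 and 1.02 times the untreated sum in WT cultures T13, T33 and T43, and 0.797 and 1.00 times in KI cultures T15 and T32. KI culture T22 differed, at 2.83 times the untreated sum. Without *Gfap* the direction turned in T33, where the sum went from 80.5 to 87.1 TPM, and in T43, at 0.810 times. T32 was then at 0.759 times, T13 at 0.887 times and T15 at 0.967 times, while T22 stayed apart at 2.55 times. In T22, 23 of the 27 tested members were higher after IL-4 and 2 were lower (*Mbp* and *Mag*), with a median difference of 1.00, whereas in T32 7 were higher and 20 lower, with a median of -0.37. *Aldh1l1* went from 0 to 18.7 TPM in T22, *Sox9* from 14.9 to 65.9 TPM, and *Gfap* from 80.5 to 271 TPM. Over all tested genes the median difference was 0.127 in T22 and -0.156 in T32. *Fgfr3* was the only tested member that was higher after IL-4 in all 6 cultures.

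**Figure D5:**
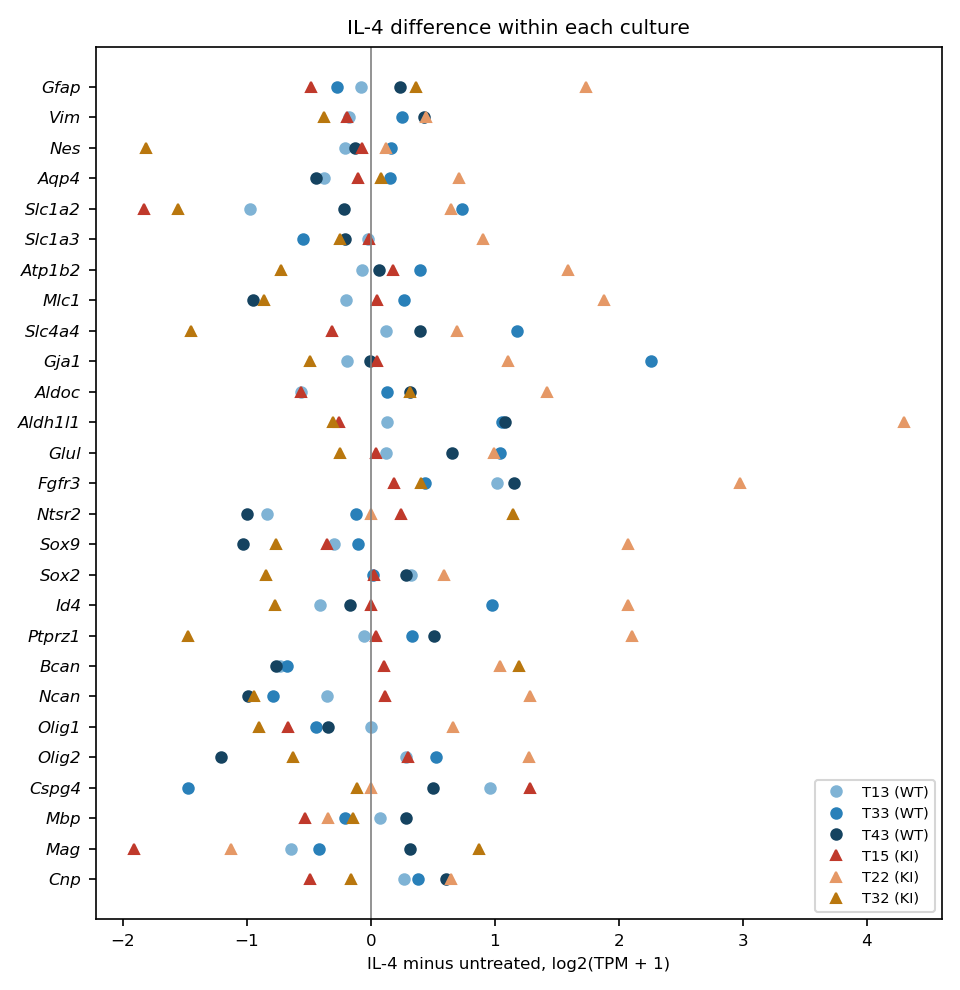
IL-4 minus untreated difference in log2(TPM + 1) within each culture (WT circles, KI triangles) for the 27 tested genes, grouped by role. T22 lies to the right of the other cultures for most astrocyte genes, and the other 5 cultures lie closer to 0, with medians from -0.37 in T32, mostly below 0, to 0.16 in T33.

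The interaction of genotype and IL-4 called no member and 0.0% of all tested genes, with limma, and 357 genes but no member had an unadjusted p under 0.05. Leaving the low genes in gave 4 calls over all genes. The interaction was -0.21 (SE 0.34) for *Vim* and -0.04 (SE 1.05) for *Olig1*. With the culture as a fixed replicate block, which compares treatments within cultures, the standard errors were 0.23 and 0.39, and neither gene passed (adjusted p = 0.973 and 0.998, limma).

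Other marker lists were counted in the same fit, in which 1.29% of all tested genes were higher and 0.357% lower in KI, 0.273% and 0.164% without T15. With the random replicate block 0.5% were higher, and 77 of the 11204 genes passed in either direction. Of 50 further astrocyte genes, 37 were tested and 4 were higher in KI, among them *Sparc* (2.12, SE 0.31, adjusted p = 0.0101), *Gpc4* and *Ddah1*, and 1 remained called without T15, with a median difference of 1.64 that became 1.00. With the random replicate block 2 of the 4 passed, and *Ddah1* did not (adjusted p = 0.0528). Of 32 genes of reactive astrocytes, 25 were tested and 4 were higher in KI, led by *Tm4sf1* (2.06, SE 0.19, adjusted p = 0.000788), *Lcn2* and *S100a10*. Of these 4 calls, 2 held without T15 and 2 with the random replicate block, under which *S100a10* was lost (adjusted p = 0.0781). *Cd14*, which microglia also express, was lower after IL-4. Of 30 further oligodendrocyte genes only 7 were tested, *Cryab* was higher in KI (1.70, SE 0.25, adjusted p = 0.00998), also without T15 and with the block, and *Fyn* and *Trf* rose with IL-4.

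All 4 tested mural cell genes were higher in KI, *Acta2* (2.11), *Myl9* (1.96) and *Tagln* (1.93) among them, and 3 were called without T15 and 3 with the random replicate block. The fibroblast and meningeal list had *Igfbp2* higher in KI (2.28, and 2.35 without T15) and *Postn* higher after IL-4 among 6 tested genes, and the endothelial list had *Flt1* higher after IL-4 among 3. No gene passed either test among 4 neuronal, 3 ependymal and 11 cell division genes. Of the 19 tested microglial genes, 6 were lower in KI, with a median difference of -0.66, and 2 were called without T15 and 3 with the random replicate block. *Trem2*, *Aif1* and *C1qb* had the smallest p-values, *C1qa* was higher and *Cx3cr1* lower after IL-4, and *Trem2* is the gene that carries the allele.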

How the data were processed

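Primary microglia from WT and homozygous *Trem2* R47H KI mice were sequenced with poly(A)-primed libraries, 12 in 4 groups of 3. By the authors, per the labels and methods, Trim Galore removed adaptors, Salmon (corrected for GC content and position) estimated transcripts on ENSEMBL GRCm38 and tximport combined them into genes. Tool versions are not given in the sources used here. The deposited values are in TPM for each gene in each library, so reads per gene are unknown, no counting interval is given and a gene at 0 is described as listed at 0. The authors' own test used counts, which were not analysed here, and limma took its place.

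Identifiers were matched to GENCODE vM21 (GRCm38), which named 48350 of 48623 genes. Values were taken as log2(TPM + 1) and genes with a mean above 1.5 were fitted with limma 3.58.1 in R 4.3.3 (eBayes with trend) with genotype, IL-4 and their interaction over all 12 libraries. Python 3.11.15, numpy 2.4.6, pandas 2.3.3 and matplotlib 3.10.9 served for tables and plots. The fit was tested on simulated data. The culture number shared by the sample titles pairs the untreated and the IL-4-treated library of a culture. Deviations of paired libraries from their group means correlated at 0.0792 (T32) to 0.378 (T15), and the random block used a correlation of 0.198. The methods describe pups of 1 litter of the KI line as prepared together and grown apart. Which cultures shared a litter or a preparation is not given in the sources used here, so litter could not enter the fit. In the main fit the paired libraries of a culture counted as independent. Its p-values therefore do not measure the spread between the cultures of a genotype alone.

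The 33 members and the marker lists were chosen with earlier results of these data known. All 33 members are named. Of each other list, at most 3 genes with the smallest p per direction and effect are named, with the 10 non-members most correlated with the astrocyte sum. *Pdgfra* is also in the fibroblast list and *Notch3* is in 2 lists. Alternatives were a pseudocount of 0.1, no filter, quantile normalization, median-ratio scaling, the replicate block, 1-coefficient tests and leaving out each culture. A 1-coefficient test with the replicate block was added after seeing the data. Promoters are from RefSeq (GRCm38.p6), whose starts can differ from those of GENCODE.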

Additional observations from a re-analysis of the deposited data

Results flagged for a closer look

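*Bcan*, which encodes the matrix proteoglycan brevican, moved in opposite directions with IL-4 in the genotypes. It went from 29.6 to 17.5 TPM in T13, from 3.76 to 1.98 TPM in T33 and from 5.05 to 2.57 TPM in T43, the 3 WT cultures. It went from 98.1 to 106 TPM in T15, from 10.6 to 22.8 TPM in T22 and from 9.94 to 24.1 TPM in T32, the 3 KI cultures. The KI response exceeded the WT response by 1.51 on the log2(TPM + 1) scale (SE 1.38), and the limma test of the interaction over all genes gave an adjusted p of 1.00. With the culture as a fixed replicate block the SE was 0.49 and the adjusted p 0.969, so the difference passed in neither fit. The sum of the astrocyte markers did not show the same split, since it was 0.797 times the untreated value in T15, 2.83 times in T22 and 1.00 times in T32.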

How the results depend on the processing

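The number of genes past the genotype threshold was 185, and it became 16 with no filter, 77 with the replicate block, 575 with the 1-coefficient test and 3 to 192 when 1 culture was left out (48 without T15, 79 without T32, 3 without T33 and 16 without T43). Of the 185, 43 were among the 48 called without T15. The IL-4 count was 100, and it became 61 with no filter, 240 with the replicate block, 151 with the 1-coefficient test and 46 to 144 with 1 culture left out (56 without T13, 65 without T32, 51 without T33 and 46 without T43). The interaction count was 0, and 4 with no filter. The share of genotype calls that were higher in KI was 78.4%, against 59.6% with quantile normalization and 67.7% with median-ratio scaling. The number of members past the genotype threshold was 2, and it became 1 with a pseudocount of 0.1, 0 with no filter, 1 with quantile normalization, 1 with the replicate block, 7 with the 1-coefficient test and 0 to 3 with 1 culture left out (0 without T33 or T43). The cause of these moves was not tested. Of 322 genotype values of single members under the alternatives, 303 kept their direction and side of the threshold, 7 newly passed, 12 no longer passed and 0 changed sign. Of 322 IL-4 values none passed the threshold in any alternative, and 35, of 16 members whose differences lay between -0.09 and 0.28, changed sign, so no direction is read from them. These were *Bcan* (-0.0207), *Mlc1* (-0.0208) and *Aqp4* (-0.0477) with median-ratio scaling, *Bcan* (-0.0196) with a pseudocount of 0.1, *Mlc1* (-0.0154), *Aqp4* (-0.0388) and *Vim* (-0.0955) with quantile normalization, 13 without T22 and 2 to 5 without each other culture. With 1 culture left out the IL-4 difference ran from -0.0490 to 0.506 (*Gfap*), -0.116 to 0.0876 (*Aqp4*), -0.196 to 0.0925 (*Slc1a3*), -0.0805 to 0.416 (*Aldoc*), -0.519 to 0.192 (*Sox9*), -0.102 to 0.258 (*Sox2*), -0.0713 to 0.508 (*Atp1b2*) and -0.264 to 0.0219 (*Ntsr2*). It ran from -0.35 to 0.335 (*Mlc1*), -0.158 to 0.379 (*Slc4a4*), -0.15 to 0.359 (*Olig2*), -0.0492 to 0.561 (*Cspg4*), -0.0577 to 0.15 (*Vim*), -0.126 to 0.585 (*Id4*), -0.227 to 0.668 (*Ptprz1*) and -0.0728 to 0.199 (*Bcan*) for the other members that changed sign. In the F-tests the replicate block changed no other call among the members than that of *Olig1*. In the 1-coefficient test, a combination added after seeing the data, the block left 6 members past the threshold. TPM keeps no depth, so the precision of genes near 0 such as *Gjb6*, *Sox10* and *Mog* is unknown.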
